A study of Mus musculus with 25 samples.

Results

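The genes described here are 9 receptors and ligands that hold hematopoietic stem cells in the bone marrow or guide them back to it: Cxcr4, Itga4, Itga5, Itgb1, Itgal, Itgb2, Selplg, Cd44 and Vcam1. They were chosen by symbol, as the integrin, selectin-ligand and chemokine-receptor genes of stem cell homing, and each was matched to 1 Ensembl gene of the count table. The table holds 13641 genes, and all 9 passed the filter on low counts, which kept 13630 genes.

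Stem cells circulating in blood roll on the wall of marrow vessels through P-selectin glycoprotein ligand (Selplg) and CD44, which bind selectins. The chemokine CXCL12 then acts through CXCR4 to switch integrins to their adhesive form, and very late antigen 4 (Itga4 with Itgb1) binds VCAM1 on endothelial and stromal cells. The fibronectin receptor (Itga5 with Itgb1) and lymphocyte function-associated antigen 1 (Itgal with Itgb2, which binds ICAM proteins) add to this adhesion, and CD44 also binds hyaluronan.

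The study asked how loss of interleukin-1β or of its receptor bears on stem cells that carry the JAK2 mutation of myeloproliferative neoplasms. Recipient mice were engrafted with donor bone marrow, tamoxifen was begun 16 weeks later, and long-term stem cells with the surface phenotype Lin-Sca1+cKit+CD48-CD150+ were sorted 2 or 4 weeks after its start for polyA RNA sequencing. Donors labelled SclCre;GFP are called WT. Donors labelled SclCre;V617F;GFP are called VF, those labelled SclCre;V617F;IL-1b-/-GFP are called Il1bKO, and those labelled SclCre;V617F;IL-1R1-/-GFP are called Il1r1KO. All 4 donor genotypes are thus labelled with SclCre, a Cre driven by the Scl promoter of blood stem and progenitor cells, and with GFP, and the mutant ones also carry a JAK2 construct induced by tamoxifen. There were 4 libraries of each of the 4 genotypes at 2 weeks (WT_2w, VF_2w, Il1bKO_2w, Il1r1KO_2w) and 3 of each mutant genotype at 4 weeks (VF_4w, Il1bKO_4w, Il1r1KO_4w), with no WT library at 4 weeks. The deletions are those of the donor marrow, no deletion is labelled in the recipients, and the labels do not say whether each library came from 1 mouse. The p-values therefore measure the spread between these libraries.

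The 25 libraries held 21990959 to 40178173 counts. The libraries of the 2 times were processed as 2 batches, so time and batch cannot be told apart, and genotypes were compared within a time. The library Il1bKO_4w 5 stood apart with 11871 genes detected, against 13039 to 13491 in the others. VF_4w 6 and Il1r1KO_4w 5 had been seen to stand apart in earlier work on these data. Some results that rest on these libraries are given with and without them, and others only with them. CreERT2 had 0 or 1 read in every library labelled WT, although the label carries SclCre, and pEGFP there ranged from 3.03 to 998 CPM (read counts scaled to the size of the library). WT libraries are therefore called "labelled WT" in what follows where a direction rests on them. Il1b had 0 reads in all Il1bKO libraries, and also in some libraries of other genotypes. Il1r1 had 271 to 882 reads per library in Il1r1KO, and as gene-level counts may come from outside the deleted part, they do not check that label. In bulk RNA, fewer cells of a type and less RNA per cell cannot be told apart.

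RefSeq promoter sequence (build GRCm38.p6) was at hand for 5 of the 9 genes, Cxcr4, Itga4, Itga5, Itgb1 and Cd44. Itgal, Itgb2, Selplg and Vcam1 had no entry. Those of Cxcr4, Itga4 and Cd44 are shown because these 3 genes had the lowest p-values of the 5 in the comparisons of knockout with VF. Each is the 250 bases before the RefSeq start, 5′ to 3′ on the strand of the gene, at chr1:128592300-128592549 (minus strand), chr2:79255176-79255425 (plus strand) and chr2:102901666-102901915 (minus strand). Capitals mark a match to the RUNX motif TGTGGT, found on the opposite strand.

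Cxcr4: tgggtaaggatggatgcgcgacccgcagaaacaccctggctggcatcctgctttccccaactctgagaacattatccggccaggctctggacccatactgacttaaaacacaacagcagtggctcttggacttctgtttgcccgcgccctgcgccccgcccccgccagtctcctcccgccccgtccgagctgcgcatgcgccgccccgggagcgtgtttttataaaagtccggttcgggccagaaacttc

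Itga4: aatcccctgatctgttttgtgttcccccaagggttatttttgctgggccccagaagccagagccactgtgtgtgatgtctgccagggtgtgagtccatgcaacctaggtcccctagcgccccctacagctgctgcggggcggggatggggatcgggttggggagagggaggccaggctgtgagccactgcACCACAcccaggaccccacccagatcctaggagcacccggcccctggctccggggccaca

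Cd44: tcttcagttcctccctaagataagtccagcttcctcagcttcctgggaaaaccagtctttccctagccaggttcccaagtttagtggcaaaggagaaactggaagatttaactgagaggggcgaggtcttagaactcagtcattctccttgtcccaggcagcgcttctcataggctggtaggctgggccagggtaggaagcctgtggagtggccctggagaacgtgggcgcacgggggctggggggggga

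The 5 promoters were searched on both strands for 3 motifs of factors that act in blood cells or below cytokine receptors. The STAT5 motif TTCNNNGAA occurs in 7.02% of the 32851 RefSeq promoters of this length, the NF-kB consensus in 3.9% and the RUNX motif TGTGGT in 14%. Among the 5 genes there was 1 match, the RUNX motif in the Itga4 promoter (ACCACA as printed), 60 to 55 bases before the start. A match is a description of letters, and the lack of one says only that those letters are not in this window. The Cxcr4 promoter was 61.2% G and C with 19 CG pairs, that of Itga4 64% with 6 and that of Cd44 56.4% with 5, against a median of 52.4% G and C over all promoters.

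Per length of exon, the stem cells held far more integrin beta1 transcript than any other member. The mean over the 25 libraries was 117 ± 13.0 CPM per kb (SD) for Itgb1, the chain that pairs with many alpha subunits. Selplg followed at 36.2 ± 7.32, then Itgb2 at 21.6 ± 7.92, Cd44 at 19.0 ± 2.89, Itga5 at 18.9 ± 4.25, Itga4 at 12.6 ± 2.67 and Cxcr4 at 8.01 ± 2.38 CPM per kb. Itgal stood at 1.02 ± 0.999 and Vcam1 at 0.0527 ± 0.0756 CPM per kb. Itgb2, Cd44 and Itga5 differed by less than their SD and have no order among them. With the longest transcript as the length, Itga4 came to 18.0, Selplg to 66.9 and Cd44 to 23.0 CPM per kb, and the order of Itgb2 (22.2) and Cd44 turned.

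**Figure D1:**
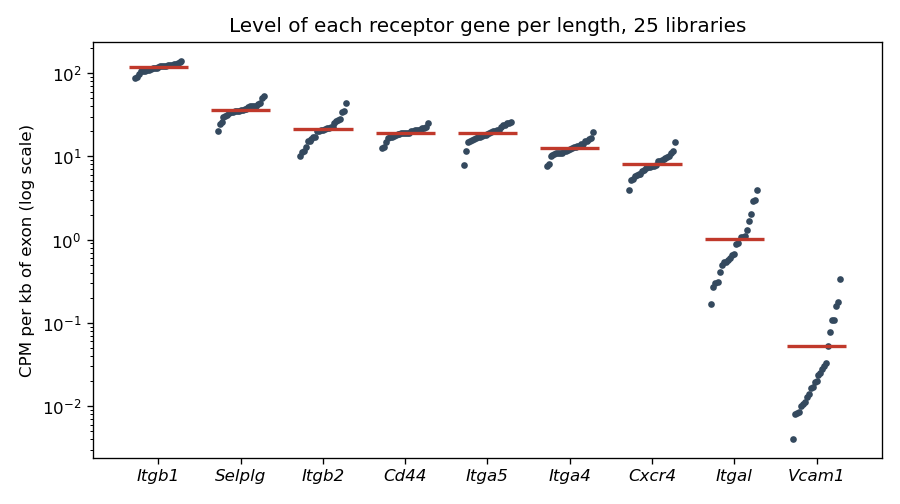
Level of each of the 9 genes per kb of exon on a log scale, 1 point per library (libraries without a read left out, 2 for Itgal) and a bar at the mean over all 25 libraries. The points of Itgb1 lie above those of every other gene, and those of Vcam1 span the widest range.

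The members also differed in how evenly the libraries held them. The coefficient of variation over all 25 libraries was 11.2% for Itgb1, 15.1% for Cd44, 20.2% for Selplg, 21.2% for Itga4, 22.5% for Itga5, 29.7% for Cxcr4 and 36.7% for Itgb2. It was 98.1% for Itgal and 144% for Vcam1, the genes with the fewest reads. In the order of the 7 group means, neighbouring groups were taken as distinct only where their means differed by more than the larger of their SDs.

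**Figure D2:**
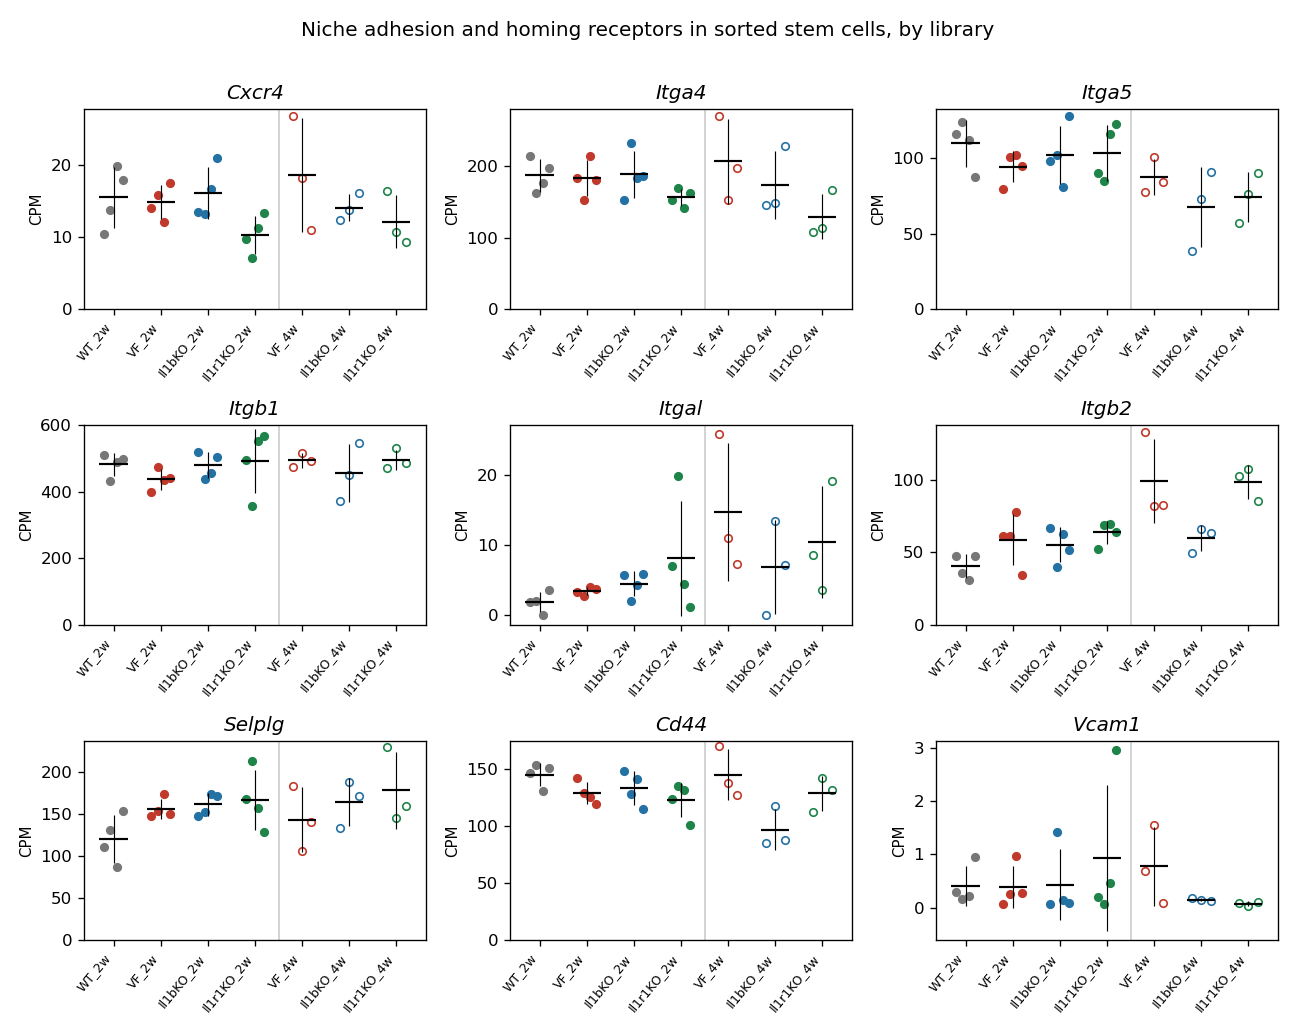
CPM of each gene (vertical axis, from its own scale) by group, 1 point per library, filled at 2 weeks and open at 4 weeks, with the mean and a line of ± 1 SD. Itgb2 is highest in VF_4w and Il1r1KO_4w, Cd44 is lowest in Il1bKO_4w, and most other groups overlap.

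Cxcr4, the receptor for CXCL12, lies on chromosome 1 from 128588199 to 128592293 (mm10). Its levels were lowest in cells without Il1r1, but the ranges overlapped. Il1r1KO_2w had 9.67, 7.07, 11.2 and 13.4 CPM, and VF_2w had 14.1, 15.8, 12.1 and 17.5. WT_2w had 10.4, 13.8, 19.9 and 18.0 CPM, and Il1bKO_2w had 13.5, 13.2, 16.7 and 21.0. So 3 of 4 Il1r1KO_2w libraries lay under every VF_2w library. At 4 weeks Cxcr4 was 26.8, 18.2 and 11 CPM in VF, 12.4, 13.8 and 16.1 in Il1bKO and 16.4, 10.7 and 9.36 in Il1r1KO. The 3 VF_4w libraries spread more widely than either knockout group, and all overlapped. Over both times the log2 difference of Il1r1KO from VF was -0.57 ± 0.21 (SE, edgeR's quasi-likelihood test), with an adjusted p = 0.319 (Benjamini-Hochberg). Over 35 alternative settings it lay between -0.72 and -0.39, with adjusted p from 0.105 to 0.763. The group means ran from 18.7 CPM (VF_4w) through 16.1 (Il1bKO_2w), 15.5 (WT_2w), 14.9 (VF_2w), 14.1 (Il1bKO_4w) and 12.2 (Il1r1KO_4w) to 10.3 (Il1r1KO_2w), and no neighbours in this order differed by more than the larger SD. Cxcr4 lies 88.3 Mb from the deleted Il1r1 on the same chromosome.

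Itgb1, the shared beta1 chain, is on chromosome 8 from 128685654 to 128733200. It varied little. Its 25 libraries ran from 356 to 567 CPM, the group means ran from 437 ± 30.7 (VF_2w) to 496 ± 30.3 (Il1r1KO_4w), and every group's range overlapped that of its neighbour in the order. VF differed from WT at 2 weeks by log2 -0.14 (95% interval -0.39 to 0.11). The interval for Il1bKO against VF over both times was -0.18 to 0.20 and that for Il1r1KO against VF -0.10 to 0.28. At this precision a change of Itgb1 by more than log2 0.39 in any of these 3 comparisons lies outside the interval.

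Itga4, the alpha4 chain of the VCAM1 receptor, is on chromosome 2 from 79255426 to 79333123. It stood lowest in Il1r1KO_4w, with 108, 114 and 166 CPM. VF_4w had 271, 152 and 197 CPM, and Il1bKO_4w had 145, 148 and 229. Of the Il1r1KO_4w libraries, 2 lay under all others of that time, and the third overlapped both groups. At 2 weeks Itga4 was 153, 169.6, 141 and 162 CPM in Il1r1KO, 184, 153, 215 and 181 in VF, 152, 233, 183 and 186 in Il1bKO and 214, 162, 176 and 198 in WT. The Il1r1KO_2w values lay within or below the range of the other 3 groups, and all 4 groups overlapped.

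The log2 difference of Itga4 between Il1r1KO and VF was -0.68 ± 0.21 (SE) at 4 weeks (adjusted p = 0.194 by edgeR) and -0.23 ± 0.18 at 2 weeks (adjusted p = 1 by edgeR). Over both times it was -0.45 ± 0.14 (adjusted p = 0.215 by edgeR). With limma voom and library weights it passed the threshold, at -0.46 over both times (adjusted p = 0.0378) and -0.71 at 4 weeks (adjusted p = 0.0427). Voom called 2.36% and 2.98% of all genes in these comparisons. Over all 35 settings the value for both times lay between -0.56 and -0.33 with adjusted p from 0.0378 to 0.616, the highest without VF_4w 5. Without the 3 libraries that stand apart at 4 weeks the difference at 4 weeks was -0.74 (adjusted p = 0.0725 by edgeR), and without VF_4w 5, the library highest in Itga4, it was -0.44 (adjusted p = 0.699 by edgeR). Il1bKO and VF differed by -0.10 ± 0.14 over both times. Group means ran from 207 CPM (VF_4w) to 129 (Il1r1KO_4w), with no step between neighbours above the larger SD.

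Itga5, the alpha5 chain of the fibronectin receptor, is on chromosome 15 from 103344286 to 103366763. It had lower means in each mutant genotype at 4 weeks than at 2 weeks. Il1bKO_4w had 38.6, 73.0 and 91.0 CPM, the lowest value being that of Il1bKO_4w 5, and Il1r1KO_4w had 56.7, 76.2 and 90.1. VF_4w had 77.7, 101 and 84.3 CPM. At 2 weeks the values were 98.1, 102, 81.1 and 128 in Il1bKO, 90.0, 85.1, 116 and 123 in Il1r1KO, 79.6, 101, 102 and 94.8 in VF, and 116, 124, 112 and 87.7 in WT. Each genotype's 2 times overlapped. Averaged over the 3 mutant genotypes, Itga5 fell by 0.39 ± 0.13 (SE) on the log2 scale from 2 to 4 weeks (adjusted p = 0.0414 by edgeR), a test added after the data were seen. This call was lost in 15 of 34 alternative settings, and over all 34 the adjusted p ran from 0.0131 to 0.0984. It was lost on leaving out any 1 of 12 libraries: VF_2w 2, 3 or 4, VF_4w 5 or 7, Il1bKO_2w 2 or 4, Il1bKO_4w 5, Il1r1KO_2w 3 or 4, and Il1r1KO_4w 5 or 6. Without Il1bKO_4w 5 the fall was 0.30 on the log2 scale (a difference of -0.30, adjusted p = 0.0532 by edgeR). As the time points are also the processing batches, the 2 cannot be told apart.

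Itgb2, the beta2 chain of the leukocyte integrins, is on chromosome 10 from 77530252 to 77565708. By edgeR it was the only member called among all 7 groups, a test that includes time and batch. WT_2w had 47.3, 35.9, 31.1 and 47.3 CPM. VF_2w had 61.5, 61.3, 77.6 and 34.6 CPM. Il1bKO_2w had 66.6, 39.7, 63.0 and 51.8 CPM, and Il1r1KO_2w had 52.4, 68.9, 69.7 and 64.3. All 4 Il1r1KO_2w libraries lay above all 4 labelled WT, while VF_2w and Il1bKO_2w overlapped them. At 4 weeks VF had 133, 82.2 and 82.8 CPM, Il1r1KO had 103, 108 and 85.2, and Il1bKO had 49.7, 66.3 and 63.3. All 3 Il1bKO_4w libraries lay below all 6 of the other genotypes.

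The test of any difference among the 7 groups called Itgb2 (adjusted p = 0.00765 by edgeR). It was called in all 33 alternative settings that could be fitted, with adjusted p from 3.6e-06 to 0.0272. That test includes time and with it the batch. Within 2 weeks the test among 4 genotypes gave an adjusted p = 1 (edgeR), and within 4 weeks that among 3 genotypes, added after the data were seen, gave an adjusted p = 0.182 (edgeR). Neither passed the threshold within its batch. Cd44 had a lower adjusted p than Itgb2 among the 3 genotypes at 4 weeks (0.111 by edgeR).

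The contrasts show where the Itgb2 levels differed in size. VF was above the libraries labelled WT by log2 0.54 ± 0.22 at 2 weeks (adjusted p = 1 by edgeR), and Il1r1KO was above them by 0.66 ± 0.22 (adjusted p = 0.586 by edgeR). Il1bKO was below VF by -0.74 ± 0.25 at 4 weeks (adjusted p = 0.188 by edgeR) against -0.09 ± 0.21 at 2 weeks. Over the alternatives the difference at 4 weeks lay between -0.86 and -0.47, with adjusted p from 0.0919 to 0.938. It was -0.47 without VF_4w 5, the library highest in Itgb2, -0.62 without Il1bKO_4w 5 and -0.74 without the 3 libraries that stand apart. The difference between the effects at the 2 times was -0.65 ± 0.33 (adjusted p = 0.624 by edgeR), and it was -0.38 without VF_4w 5 and -0.46 without VF_2w 4. Il1r1KO and VF differed at 4 weeks by -0.01 (95% interval -0.52 to 0.50). Averaged over the 3 mutant genotypes, Itgb2 rose by log2 0.50 ± 0.13 from 2 to 4 weeks (adjusted p = 0.0157 by edgeR), and it was called in all 34 alternative settings. By genotype the difference was 0.76 ± 0.23 in VF (adjusted p = 0.383 by edgeR; 0.50 without VF_4w 5), 0.63 ± 0.23 in Il1r1KO (adjusted p = 0.124 by edgeR) and 0.11 ± 0.23 in Il1bKO (adjusted p = 0.820 by edgeR). The order of means was VF_4w (99.5 CPM), Il1r1KO_4w (98.9), Il1r1KO_2w (63.8), Il1bKO_4w (59.8), VF_2w (58.7), Il1bKO_2w (55.3) and WT_2w (40.4). Of the 6 steps between neighbours, 2 exceeded the larger SD, that from Il1r1KO_4w to Il1r1KO_2w (35.0 CPM) and that from Il1bKO_2w to WT_2w (14.9 CPM).

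Markers of other cells were read beside Itgb2, since neutrophils and monocytes carry much of it. The summed level of the neutrophil and monocyte markers, of which 12 of 18 had a row, was 396 to 657 CPM in VF_4w and 707 to 786 in VF_2w, 451 to 697 in Il1r1KO_4w and 519 to 804 in Il1r1KO_2w, 575 to 667 in Il1bKO_4w and 542 to 731 in Il1bKO_2w, and 547 to 848 in WT_2w. In VF and Il1r1KO the median of this sum was lower at 4 weeks than at 2 weeks (639 against 726 and 479.7 against 733 CPM), while that of Itgb2 was higher. In Il1bKO both medians were higher at 4 weeks (659.7 against 592 CPM for the sum, 63.3 against 57.4 for Itgb2). Against WT_2w (median 600.4 CPM) the median of the sum was higher in VF_2w and Il1r1KO_2w, as Itgb2 was. It was not higher in Il1bKO_2w (592 CPM), where the median of Itgb2 was also higher (57.4 against 41.6 CPM). Ly6g and Camp had no row, and S100a9 averaged 1.19 CPM over the libraries. These low or absent genes do not stand for the list, whose 12 genes with a row together held 396 to 848 CPM. Megakaryocyte markers, 11 of 11 with a row, summed to 520.1 to 2252 CPM in VF_4w, 708 to 906 in Il1r1KO_4w and 260.0 to 412 in Il1bKO_4w, against 286 to 491, 303 to 805 and 281 to 561 at 2 weeks and 232 to 359 in WT_2w. Erythroid markers, 12 of 12 with a row, had medians of 519.9 CPM in VF_4w against 207 in VF_2w, 301 against 189 in Il1r1KO, 239 against 191 in Il1bKO and 144 in WT_2w. Of these Hbb-bs rose by log2 1.43 ± 0.39 (adjusted p = 0.0178 by edgeR) and Hba-a2 by 2.59 ± 0.80 (adjusted p = 0.0333 by edgeR) with time. At 4 weeks VF and Il1r1KO, the groups with high Itgb2, also had higher sums of megakaryocyte markers than Il1bKO. Their medians of erythroid markers were higher too, with ranges that overlapped. Within VF_4w the library with the highest megakaryocyte sum, VF_4w 6 (2252 CPM), had the lowest Itgb2 (82.2 CPM). VF_4w 5 had 634 CPM of megakaryocyte markers and 133 of Itgb2, and VF_4w 7 had 520.1 and 82.8. Cd48, which the sort selects against, rose by log2 1.81 ± 0.38 with time (adjusted p = 0.00393 by edgeR), from group means of 1.49 to 2.84 CPM at 2 weeks to 7.65 to 11.6 at 4 weeks. T and NK cell markers, 3 of 12 with a row, had medians of 93.3 CPM in Il1r1KO_4w against 74.7 in Il1r1KO_2w. These were 64.0 against 51.5 in VF, 93.1 against 67.7 in Il1bKO and 70.8 in WT_2w. With time Nkg7 differed by log2 1.23 ± 0.25 (adjusted p = 0.00337 by edgeR) and Klrb1c by -1.69 ± 0.56 (adjusted p = 0.0449 by edgeR). The sum of 12 stem cell markers was 2234 to 3686 CPM at 2 weeks and 1626 to 2314 at 4 weeks. The part of these markers in the levels of Itgb2 was not tested.

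Itgal, the alpha chain that pairs with Itgb2, is on chromosome 7 from 127296260 to 127335138 and was low and uneven. It had 0 reads in WT_2w 3 and in Il1bKO_4w 5, where 3 reads, about the upper 95% limit of a count of 0, would be 0.109 and 0.0753 CPM. The remaining WT_2w libraries had 1.78, 2.01 and 3.59 CPM, and VF_2w had 3.22, 2.65, 3.93 and 3.71. At 4 weeks VF had 25.9, 11 and 7.27 CPM, Il1bKO had 13.4 and 7.16 in its other libraries, and Il1r1KO had 8.57, 3.50 and 19.2. All 3 VF_4w libraries lay above all 4 of VF_2w, a log2 difference of 2.13 ± 1.14 (adjusted p = 0.645 by edgeR). Il1bKO_2w had 5.75, 1.98, 4.31 and 5.93 CPM and Il1r1KO_2w had 7.01, 19.9, 4.47 and 1.12. The range within Il1r1KO_2w was wider than that of the 7 group means, which ran from 14.7 CPM (VF_4w) to 1.85 (WT_2w). The narrowest 95% interval of Itgal, that of time averaged over the 3 mutant genotypes, ran from log2 -0.31 to 2.37. Per length, Itgal reached 0 to 13.4% of the level of Itgb2, with a median of 3.53%. Itgam, another alpha chain of Itgb2, reached 2.86 to 47.0% with a median of 20.2%.

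**Figure D3:**
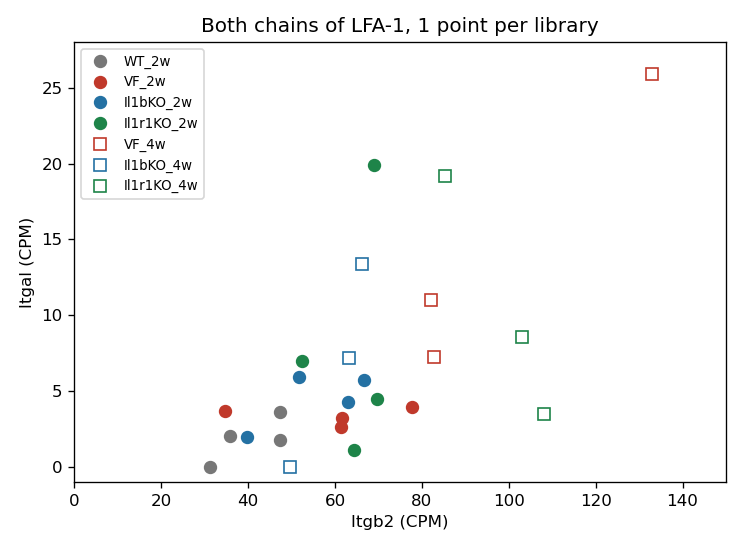
Itgal against Itgb2 in CPM, 1 point per library, filled circles at 2 weeks and open squares at 4 weeks. The library highest in both is VF_4w 5 (133 CPM of Itgb2, 25.9 of Itgal), and the WT_2w library without Itgal reads is also the lowest in Itgb2 (31.1 CPM).

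Over the 25 libraries, which share sequencing and scaling and differ in group and time, Itgal and Itgb2 had a Spearman rho of 0.68 and a Pearson r of 0.65 (0.59 without the 2 farthest libraries). Within the 16 libraries of 2 weeks rho was 0.52, and within the 9 of 4 weeks it was 0.45. Of the 36 pairs of members, Itgal and Selplg came next, with rho 0.66 and r 0.65 over 25 libraries (0.52 without the 2 farthest), and rho 0.81 within 2 weeks and 0.42 within 4 weeks. These are descriptions, with part of each value set by the groups.

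Selplg, the selectin ligand, is on chromosome 5 from 113818536 to 113832644. Its lowest group mean was that of the libraries labelled WT. WT_2w had 111, 131, 86.9 and 154 CPM, VF_2w had 147, 153, 174 and 149.8, Il1bKO_2w had 148, 152, 174 and 171, and Il1r1KO_2w had 168, 213, 157 and 128. So 3 of 4 WT_2w libraries lay under all VF_2w and Il1bKO_2w libraries, and the fourth lay among them. The log2 differences from WT_2w were 0.37 ± 0.18 for VF (adjusted p = 1 by edgeR), 0.42 ± 0.18 for Il1bKO (adjusted p = 1 by edgeR) and 0.46 ± 0.18 for Il1r1KO (adjusted p = 0.736 by edgeR). These 3 contrasts share the WT_2w libraries. At 4 weeks the 9 libraries ran from 106 CPM (VF_4w 6) to 229.8 (Il1r1KO_4w 5), both among those that stand apart. Group means ran from 178 CPM (Il1r1KO_4w) to 121 (WT_2w), with no neighbours apart by more than the larger SD.

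Cd44, the receptor for hyaluronan and also a selectin ligand, is on chromosome 2 from 102811141 to 102901665. It was lowest in Il1bKO_4w, with 84.8, 117 and 87.8 CPM. VF_4w had 169.8, 137 and 127 CPM, and Il1r1KO_4w had 112, 142 and 131. All Il1bKO_4w libraries lay below all VF_4w libraries, and Il1bKO_4w 6 (117 CPM) overlapped Il1r1KO_4w. At 2 weeks no such gap appeared, as Il1bKO had 148, 128, 141 and 115 CPM, VF had 142, 129, 125 and 119, Il1r1KO had 123, 135, 131 and 101, and WT had 146, 153, 130.0 and 150.1.

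The log2 difference of Cd44 between Il1bKO and VF was -0.58 ± 0.14 (SE) at 4 weeks, with adjusted p = 0.0911 by edgeR, above the threshold of 0.05. It was 0.04 ± 0.12 at 2 weeks, and the difference between the 2 effects was -0.63 ± 0.19 (adjusted p = 0.499 by edgeR). DESeq2 gave -0.58 at 4 weeks with adjusted p = 0.0125, past the threshold, where it called 2.76% of all genes. The adjusted p ran from 0.0125 to 0.938 over 35 settings, with differences from -0.74 to -0.41. Without Il1bKO_4w 6 the difference was -0.74 (adjusted p = 0.0167 by edgeR), without Il1bKO_4w 5 it was -0.49 (adjusted p = 0.310 by edgeR), and without the 3 libraries that stand apart it was -0.53 (adjusted p = 0.169 by edgeR). Against Il1r1KO the difference at 4 weeks was -0.41 ± 0.14 (adjusted p = 0.202 by edgeR). It was -0.33 without Il1bKO_4w 5 (adjusted p = 0.559 by edgeR) and -0.58 without Il1bKO_4w 6 (adjusted p = 0.0420 by edgeR). The order of means was WT_2w (145 CPM), VF_4w (144), Il1bKO_2w (133), VF_2w (129), Il1r1KO_4w (129), Il1r1KO_2w (122) and Il1bKO_4w (96.6), and of the 6 steps only the last (25.8 CPM) exceeded the larger SD. Cd44 lies 26.5 Mb from the deleted Il1b on the same chromosome, and Itga4 lies 50 Mb from it.

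Vcam1, the counter-receptor that endothelial, stromal and some blood cells present to Itga4, is on chromosome 3 from 116109949 to 116129688. It was close to the limit of detection. Each library had at least 1 read, from 1 to 93, or 0.0361 to 2.96 CPM, and 1 library in each of WT_2w, Il1bKO_2w and Il1r1KO_2w held far more than its group. These had 26 reads against 8, 5 and 6 in WT_2w, 43 against 2, 4 and 3 in Il1bKO_2w, and 93 against 6, 2 and 12 in Il1r1KO_2w. VF_2w had 2, 8, 25 and 6 reads and VF_4w had 18, 43 and 3. Il1bKO_4w had 7, 4 and 4 reads and Il1r1KO_4w had 2, 1 and 3. Adjusted p was 0.203 or more in every comparison by edgeR. Of the 6 steps between neighbouring group means, 1 exceeded the larger SD, that from Il1bKO_4w (0.149 CPM) to Il1r1KO_4w (0.0800 CPM), whose ranges were apart, at 1 to 7 reads a library. Stromal and endothelial markers, 7 of 14 with a row, summed to 139 to 351 CPM over the groups, and Cxcl12, Pdgfra, Col1a1 and Cdh5 had no row. Macrophage markers, 7 of 16 with a row, summed to 26.5 to 91.4 CPM, and Adgre1 and the C1q genes had no row.

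Counted over the comparisons, few of the 9 genes passed the test. Voom called 0 members in all 14 comparisons of genotypes except Itga4 in the 2 given above, and DESeq2 called 0 except Cd44 in Il1bKO against VF at 4 weeks. In VF against WT at 2 weeks edgeR called 0 of 9 members, where it called 0.00734% of all genes, and 1 member had an unadjusted p under 0.05 (2.27% of all genes). The median log2 difference of the members was -0.06, against 0.00 over all genes. In Il1bKO against WT at 2 weeks 0 were called (0.0440% of all genes) and 2 were under 0.05 (3.10%). In Il1r1KO against WT at 2 weeks 0 were called (0.0587%) and 3 were under 0.05 (5.98%), and 1 member, Itgb2, had groups that did not overlap (4.78% of all genes).

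**Figure D4:**
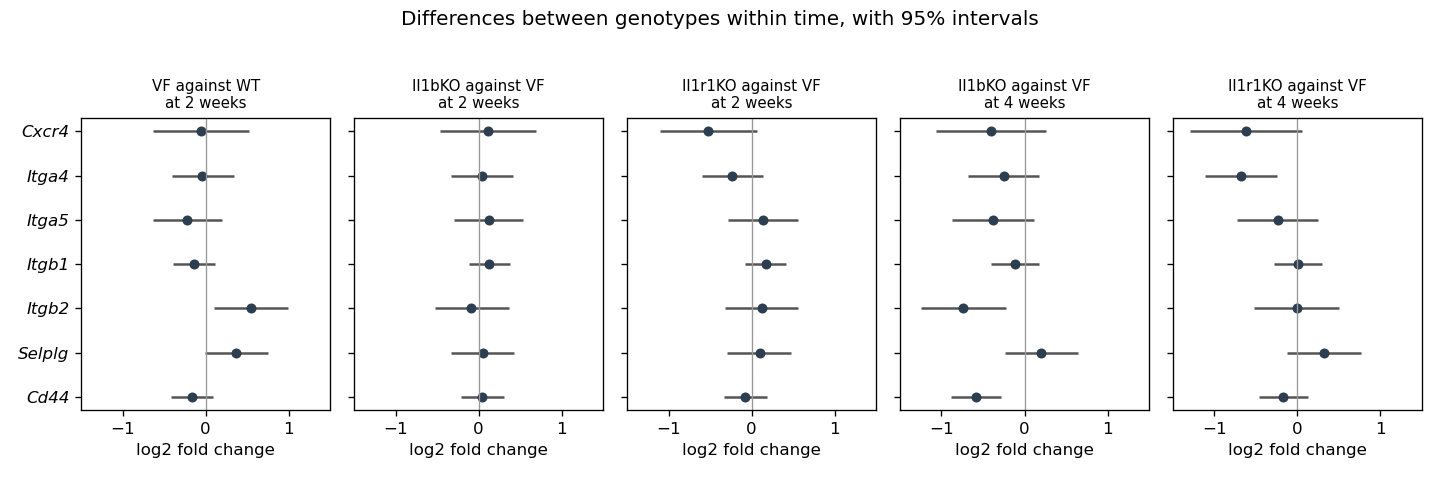
Log2 fold change (point) and its 95% interval (line) for 7 members in 5 comparisons of genotypes within a time, from the edgeR fit of all 25 libraries. Itgal and Vcam1 are left out for their wide intervals. The intervals of Itgb2 and Cd44 in Il1bKO against VF at 4 weeks and of Itga4 in Il1r1KO against VF at 4 weeks lie below 0. That of Itgb2 in VF against WT at 2 weeks (0.10 to 0.99) lies above 0. No adjusted p passed 0.05.

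For loss of Il1b, edgeR called 0 of 9 members against VF at 2 weeks (0.00734% of all genes), at 4 weeks (0.125%) and over both times (0.139%). The members with an unadjusted p under 0.05 numbered 0 at 2 weeks (1.36% of all genes), 2 at 4 weeks (14.7%) and 2 over both times (9.38%), and these 2 were Itgb2 and Cd44 each time. The groups at 4 weeks did not overlap for the same 2 members, and for 13.0% of all genes. At 4 weeks 8 of 9 members had a lower mean in Il1bKO, all but Selplg, with a median log2 difference of -0.40 against -0.02 over all genes. This count was 7 of 9 without Il1bKO_4w 5 (median -0.32) and 6 of 9 without the 3 libraries that stand apart (median -0.34). With voom it was 7 of 9 (median -0.17), and without VF_4w 7 the median was -0.67. At 2 weeks 8 of 9 had a higher mean, with a median of 0.11 against 0.00.

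For loss of Il1r1, edgeR called 0 of 9 members against VF at 2 weeks (0.0514% of all genes), at 4 weeks (0.147%) and over both times (0.169%). Those with an unadjusted p under 0.05 numbered 0 at 2 weeks (3.15% of all genes), 2 at 4 weeks (12.7%; Itga4 and Vcam1) and 2 over both times (11.4%; Itga4 and Cxcr4). The median log2 difference at 4 weeks was -0.24 against 0.01 over all genes. Il1r1KO libraries also held more JAK2 V617F construct reads than VF libraries. For exons 3 to 12 of the construct the ranges were 178 to 218 CPM in Il1r1KO_2w and 99.7 to 130.4 in VF_2w. At 4 weeks they were 139.8 to 177 CPM in Il1r1KO and 108 to 116 in VF. For exons 13 to 25 they were 104 to 115 CPM in Il1r1KO_2w and 39.1 to 53.7 in VF_2w. At 4 weeks these were 81.6 to 102 CPM in Il1r1KO and 43.6 to 60.8 in VF. The part of this difference in the results for Il1r1KO was not tested.

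Loss of the ligand was also set against loss of the receptor. EdgeR called 0 of 9 members at 2 weeks (0.0367% of all genes), at 4 weeks (0.117%) and over both times (0.176%), with 1 (3.02%), 3 (15.5%) and 2 (14.1%) at an unadjusted p under 0.05. At 4 weeks Itgb2 and Vcam1 had groups that did not overlap, as had 10.5% of all genes, but Vcam1 rests there on 1 to 7 reads a library. The effect of each knockout was not shown to differ between times. EdgeR called 0 members for Il1b (0.0147% of all genes) and 0 for Il1r1 (0% of all genes), with 1 each at an unadjusted p under 0.05 (8.28% and 5.32%).

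Between times, edgeR called 0 members within VF (0.0220% of all genes), Il1bKO (0.748%) and Il1r1KO (2.46%). At an unadjusted p under 0.05 there were 1 (8.48%), 2 (19.1%) and 3 (19.3%). Groups did not overlap for Itgb2 and Itgal in VF (14.4% of all genes) and for Itgb2 in Il1r1KO (16.7%). DESeq2 called Cd44 within Il1bKO (-0.46, adjusted p = 0.0318), where it called 4.46% of all genes. By edgeR this difference was -0.38 without Il1bKO_4w 5 (adjusted p = 0.275) and -0.62 without Il1bKO_4w 6 (adjusted p = 0.0260). Averaged over the 3 mutant genotypes, 2 of 9 were called by edgeR, Itgb2 upward and Itga5 downward, against 14.4% of all genes, and the same 2 by voom (18.5%) and DESeq2 (18.0%). These 2 were also those at an unadjusted p under 0.05 (28.9% of all genes).

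Among all 7 groups 1 of 9 was called by edgeR, Itgb2, against 7.05% of all genes, and 3 were under an unadjusted 0.05 (23.8%). Voom called Itgb2 as well (11.3% of all genes), and DESeq2 called Itgb2 and Cd44 (17.1%). Among the 4 genotypes at 2 weeks 0 were called (0.103%) and 1 was under 0.05 (2.83%). Among the 3 genotypes at 4 weeks 0 were called by edgeR (0.330%), 3 were under 0.05 (17.9%), and DESeq2 called Cd44 (adjusted p = 0.0243, 3.56% of all genes).

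Genes that act with these receptors were taken from 6 lists of 132 genes: other integrins, integrin activation, CXCR4 signalling, selectins and their ligands' synthesis, matrix and counter-receptor ligands, and other adhesion and egress genes. Of these 113 were tested, and Cxcl12 and Ackr3, the ligand and the alternative receptor beside Cxcr4, had no row. In the 14 genotype comparisons edgeR called 1 of the 113, Dock2, the exchange factor that passes CXCR4 signals to the cytoskeleton. That is 0.885% of the 113 in Il1bKO against VF over both times, beside 0.139% of all genes, and in Il1bKO against Il1r1KO, beside 0.176%. The lists were chosen with earlier results of these data known, so this share, of 1 gene, is no measure of enrichment. Dock2 fell by 0.88 ± 0.13 (SE) on the log2 scale in Il1bKO against VF over both times (adjusted p = 0.00201 by edgeR) and by 1.26 ± 0.13 against Il1r1KO (adjusted p = 1.6e-05 by edgeR). Its group means were 140.0 and 113 CPM in Il1bKO at 2 and 4 weeks, 241 and 223 in VF, 344 and 262 in Il1r1KO and 283 in WT_2w. Of the 113 genes edgeR called 0 in VF against WT at 2 weeks, where 5 had an unadjusted p under 0.05, beside 0.00734% and 2.27% of all genes.

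Of the same 113 genes, 15 (13.3%) were called between 2 and 4 weeks over the 3 mutant genotypes, 4 upward and 11 downward, near the 14.4% of all genes. Among those that rose were Icam4, a ligand of the leukocyte integrins (log2 0.94 ± 0.17, adjusted p = 0.00189 by edgeR), and Arrb2, an arrestin that uncouples chemokine receptors (0.46 ± 0.10). Rap1b, a GTPase that activates integrins, was close to the threshold (0.54 ± 0.18, adjusted p = 0.0460 by edgeR). Its mean was 468 CPM in VF_2w and 966 ± 759.9 (SD) in VF_4w. In Il1r1KO it was 573 and 862 CPM at 2 and 4 weeks, and in Il1bKO 499.7 and 491, without a rise. Among those that fell were Adgrg1 (-0.32 ± 0.06, adjusted p = 0.00210 by edgeR), an adhesion receptor of stem cells, Adgre5 (-0.57 ± 0.11), the adhesion receptor CD97, Ptk2b (-0.38 ± 0.09), an adhesion kinase, and Alcam (-1.09 ± 0.27), an adhesion protein. The median of the 113 was -0.10, against -0.03 over all genes. These changes carry the same limit of batch as those of Itgb2 and Itga5.

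By Spearman rho over the log2 CPM of the 25 libraries, among 11739 genes of mean log2 CPM of at least 1, the genes most like each member were named. Those of Itgb2 were Ruvbl2 (0.836), Hnrnpl (0.825) and Psmc2 (0.824). Those of Itgal were Oaz1 (0.822), Slf1 (0.774) and Psmc2 (0.763), so Psmc2 was named by both chains. For Cd44 they were Letmd1 (0.815), Ccdc57 and Tnrc6a, for Itga4 Arhgef18 (0.831), Galnt11 and Ern1, and for Itga5 Trip12 (0.814), Dnajc18 and Pkd2. For Cxcr4 they were Rnf34 (0.736), 1700047I17Rik2 and Wdfy1, for Itgb1 Ubxn2a (0.720), Ube2g1 and Ppp1cb, for Selplg Mrnip (0.777), Dhrs7 and Acsm3, and for Vcam1 Rnf180 (0.698), Usp47 and Kdm3a. By Pearson r, 1 of 3 names was kept for Cxcr4, Itga4, Itga5, Selplg, Cd44 and Vcam1, and 0 of 3 for Itgb1, Itgal and Itgb2, so that most of these neighbours depend on the measure. The libraries share groups, time and batch, and the values are descriptions only.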

How the data were processed

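Gene-level read counts of 25 libraries, as deposited by the authors, were used. Per the labels' protocols, RNA was extracted with the PicoPure kit and unstranded libraries were made with SMART-Seq v4. Tools listed in the submitters' processing notes are STAR 2.7.10a, featureCounts (version not given in the sources used here), FastQC 0.11.5 and R 4.2.2, with the build mm10. Each column carries the genotype and number of its sample's title. Without strand, reads of overlapping antisense genes cannot be separated. The 4 construct sequences (0.000315 to 0.197% of counts) were left out of library sizes and tests. Symbols came from GENCODE vM21 (mm10) for 13623 genes, and lengths are the union of exons.

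Tests used edgeR 4.0.16 under R 4.3.3 (TMM, filterByExpr, robust quasi-likelihood fit of 7 groups, Benjamini-Hochberg over 13630 genes, threshold 0.05). CPM use TMM-scaled library sizes, and SE and 95% intervals are those of the fit. Differences over both times are means of the within-time differences. The results were recomputed with DESeq2 1.42.0, with limma 3.58.1 (voom, library weights), with other scaling factors (RLE, upper quartile), unfiltered or with at least 5 CPM required in 3 libraries, on only those groups a comparison involves, with a replicate block, and without single libraries or sets of them. The tests among 3 genotypes at 4 weeks and of time over 3 genotypes were added after the data were seen. The members and lists were chosen with earlier results of these data known. Named genes were the 9 members, up to 4 called genes per adhesion list in the genotype comparisons, marker genes, and the 3 genes of highest rho per member. List genes named for time were chosen after their values were seen. The script was tested on simulated counts. Intervals of reads at 0 cover counting error only.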

Additional observations from a re-analysis of the deposited data

Results flagged for a closer look

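In 3 groups of 4 libraries a single library stood far from its group in Vcam1. In WT_2w 4 Vcam1 was 0.953 CPM (26 reads), against 0.173 to 0.291 in the other libraries of that group. In Il1bKO_2w 2 it was 1.42 CPM (43 reads), against 0.0732 to 0.150. In Il1r1KO_2w 4 it was 2.96 CPM (93 reads), against 0.0710 to 0.470. The gap to the nearest library was 0.849, 0.943 and 0.862 of the whole range of the group, above the critical value of 0.829 for 4 libraries (Dixon's test at 95%). Of 36 sets of 4 values tested (9 genes in 4 groups), 3 met this rule. For normally distributed values chance alone gives about 1 in 20. All 3 were of Vcam1, whose reads were few and uneven, and that rate need not hold for it. No other member had such a library at 2 weeks, and the groups of 3 at 4 weeks were not tested.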

How the results depend on the processing

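No called result changed direction in 35 settings. Of 5605 alternative values of member differences, 188 had another sign with neither value called, and 8 were called only in the alternative. Members called moved from 0 to 1 in 6 comparisons: with voom in Il1r1KO against VF at 4 weeks and over both times (1 each, Itga4), and with DESeq2 in Il1bKO against VF at 4 weeks, in Il1bKO between times and among 3 genotypes at 4 weeks (1 each, Cd44). Leaving out single libraries gave 0 to 1 in these last 3 and in Il1bKO against Il1r1KO at 4 weeks, by loss of Il1bKO_4w 6 (Cd44) or, between times, also of Il1bKO_4w 7 (Itga5). Among 7 groups DESeq2 called 2, against 1, and leaving out Il1bKO_4w 6 gave 1 to 2 (Cd44 added). Averaged over 3 genotypes, members called between times were 1 (Itgb2) with the compared groups only, without the 3 libraries that stand apart and without WT_2w 3 and 4, and 1 to 2 without single libraries. A replicate block left 0 members called in every genotype comparison and could not be fitted for time or all groups. Same-numbered libraries correlated at -0.24 to 0.14 (33 pairs, 1 over 0.1), and those of other numbers at -0.21 to 0.21. No pairing by number was visible in these values, which cannot exclude one. Depth limits Vcam1 (1 to 93 reads) and Itgal (0 to 684 reads).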

Other observations

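Among integrins beside the 9 genes, Itga2b, the platelet chain, had a mean of 35.7 CPM per kb over the 25 libraries, and Itga6, a laminin receptor chain, had 26.9. Itga2b differed among the 7 groups (adjusted p = 0.0253 by edgeR), a test that includes time and with it the batch. Its means were 89.6 CPM in WT_2w, 137 in VF_2w, 177 in Il1bKO_2w and 203 in Il1r1KO_2w. At 4 weeks they were 146 CPM in Il1bKO_4w and 271 in Il1r1KO_4w. The mean in VF_4w was 397 ± 256 CPM (SD), with 690.2 in VF_4w 6, and 251 CPM without that library. The call of Itga2b was not recomputed without VF_4w 6. Its partner Itgb3 had means of 182 CPM in VF_4w, 39.5 in Il1bKO_4w and 79.6 in Il1r1KO_4w and did not pass the test. Itgam, a partner of Itgb2, had a mean of 44.7 ± 31.2 CPM (SD) in VF_4w, 13.1 in Il1bKO_4w and 9.90 in Il1r1KO_4w. Itgam did not pass either. Of the 14 other integrins tested, 8 had an unadjusted p under 0.05 in Il1bKO against VF at 4 weeks and 0 were called by edgeR, beside 14.7% and 0.125% of all genes, with a median log2 difference of -0.78 against -0.02 over all genes. Some of the 14 were near the floor, such as Itga1 (mean 0.302 CPM, 8 libraries at 0) and Itgb5 (0.789 CPM, 11 at 0). The count of 8 and the median were not recomputed without Il1bKO_4w 5 and VF_4w 6. Itga2b is also a megakaryocyte marker, and the part of such cells in these values was not tested.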
